A study of Mus musculus with 8 samples.

Results

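p53 target genes were examined in whole blood of mice taken toward Mount Everest and of mice that stayed in Kathmandu. The list holds 12 probe sets for 8 genes (Cdkn1a, Gadd45a, Ccng1, Mdm2, Trp53inp1, Bax, Bbc3 and Pmaip1), out of 45101 probe sets on the array, and was drawn up by gene name, with earlier results of these data known. There were 4 control mice, kept under room conditions in Kathmandu, and 4 hypoxic mice, whose oxygen was lowered from 21% to about 7% along the expedition's climbing schedule. Blood was drawn from the vena cava after 15 days in both groups, 100 µl per mouse was extracted, and 1 array was run per mouse. The labels name no strain, sex, age or genetic change. The hypoxic mice travelled and the controls did not, so lower oxygen and the journey cannot be told apart. Nothing says whether the mice came from separate cages or litters, so p-values measure only the spread between these 8 samples. The number of arrays, 4 per group, limits the precision.

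The transcription factor p53 is held at a low level by the ubiquitin ligase Mdm2, which is itself a p53 target, and is released when DNA is damaged or cells are stressed, severe lack of oxygen included. It binds DNA as a tetramer over paired copies of a short motif and switches on genes that stop the cell cycle (Cdkn1a, Gadd45a, Ccng1), close the feedback loop (Mdm2), promote autophagy and cell death (Trp53inp1) or open the mitochondrial death pathway (Bax, Bbc3, Pmaip1). Most of these genes also answer to other factors. Circulating lymphocytes are among the cells most ready to die when p53 is active, whereas red cells lose their nucleus before or soon after they enter blood.

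The promoters are shown first because 5 of the 6 genes searched carry a match to the p53 motif close to a start. RefSeq promoter windows (GRCm38.p6, from 250 bases before to 50 bases after a start) were searched for the p53 monomer-pair motif, purines followed by C, bases that are A or T, G and pyrimidines, over 10 bases with no mismatch. The motif equals its own reverse complement, so 1 search covers both strands. A match was present in 8.36% of all 32851 windows. Windows of 6 of the 8 genes were searched, 9 windows in all, and 5 windows of 5 genes held a match. The genes were listed as p53 targets, so this count is a description and not a test. Pmaip1 and Trp53inp1 were not searched. A match is a description of the letters and does not show binding. In the sequences below capitals mark the matches, and each sequence reads along the strand of its gene. The window of the upstream Cdkn1a start (chr17:29090729-29091028, plus strand) held 2 matches, 73 and 51 bases upstream of that start and separated by 12 bases. The 10 bases directly after the second match differ from the motif at only 1 base. Because no mismatch was allowed, they are not marked and not counted as a match. Paired matches no more than 13 bases apart were present in 0.073% of all windows. The first Cdkn1a match lies 2863 bases upstream of the second RefSeq start of Cdkn1a. The Ccng1 window (chr11:40755237-40755536, minus strand) held 1 match, 185 bases upstream, and the Gadd45a window (chr6:67037358-67037657, minus strand) held 1, 40 bases upstream. These genes are printed whole because Gadd45a rose, Ccng1 changed in opposite directions at its probe sets, and Cdkn1a is the most widely used p53 readout.
Cdkn1a: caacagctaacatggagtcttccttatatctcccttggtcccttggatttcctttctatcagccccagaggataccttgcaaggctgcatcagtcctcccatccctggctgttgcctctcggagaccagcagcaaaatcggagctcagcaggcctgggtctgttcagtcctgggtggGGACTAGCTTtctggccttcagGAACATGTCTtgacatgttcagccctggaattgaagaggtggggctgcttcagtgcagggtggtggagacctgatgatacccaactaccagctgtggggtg
Ccng1: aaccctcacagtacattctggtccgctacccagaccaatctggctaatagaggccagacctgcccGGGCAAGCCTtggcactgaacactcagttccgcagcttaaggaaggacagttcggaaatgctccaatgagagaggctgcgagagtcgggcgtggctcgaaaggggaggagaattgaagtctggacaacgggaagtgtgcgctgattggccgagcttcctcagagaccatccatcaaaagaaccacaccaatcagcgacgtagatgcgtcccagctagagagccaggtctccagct
Gadd45a: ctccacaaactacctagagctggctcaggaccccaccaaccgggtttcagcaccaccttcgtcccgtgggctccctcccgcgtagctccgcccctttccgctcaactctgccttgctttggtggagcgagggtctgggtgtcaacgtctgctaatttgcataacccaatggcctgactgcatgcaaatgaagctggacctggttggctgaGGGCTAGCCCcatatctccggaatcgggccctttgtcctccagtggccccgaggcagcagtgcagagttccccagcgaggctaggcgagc
For Bax (chr7:45467080-45467109, minus strand) and Mdm2 (chr10:117710925-117710954, minus strand), neither of which passed the threshold, the match is printed with 10 bases on each side. It lies 201 bases upstream of the Bax start and 186 bases upstream of the Mdm2 start. Bases beyond the windows, farther inside the genes included, were not searched.
Bax: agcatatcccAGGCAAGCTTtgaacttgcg
Mdm2: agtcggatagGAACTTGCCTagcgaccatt
None of the 3 Bbc3 windows and not the window of the second Cdkn1a start held a match, which says only that these letters are not in these windows.

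**Figure D1:**
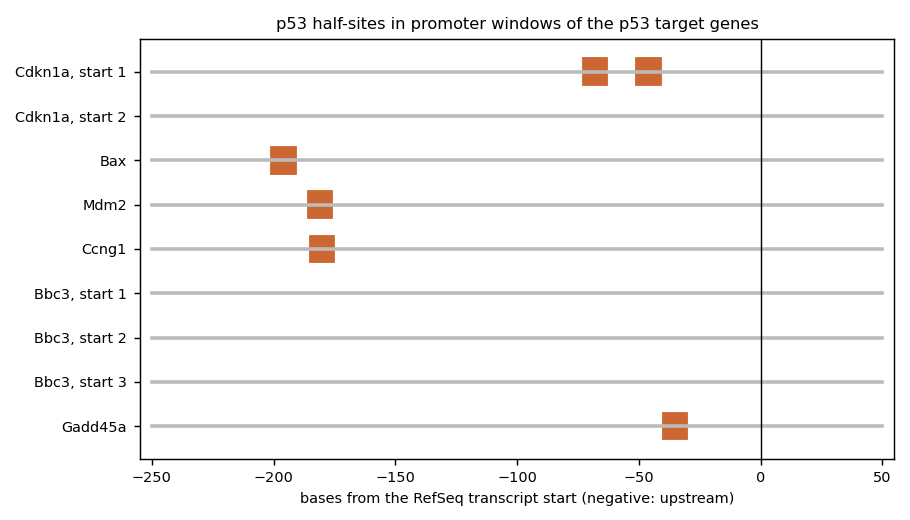
Matches to the p53 monomer-pair motif (orange boxes, 10 bases each) in the RefSeq promoter windows of 6 genes, by distance in bases from the transcript start (vertical line). The upstream Cdkn1a start has 2 matches, at 73 and 51 bases upstream, Bax, Mdm2, Ccng1 and Gadd45a have 1 each, and the 3 Bbc3 windows have none.

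The p53 target genes did not move as a block. Gadd45a rose, Pmaip1 and Trp53inp1 fell, Ccng1 fell at one probe set and rose at another, and Cdkn1a, Mdm2, Bbc3 and Bax did not pass the threshold. Values are GCRMA log2 levels (background-corrected array signal), and a change is the hypoxic mean minus the control mean on that log2 scale. All 12 probe sets were bright enough to be tested (log2 level above 4 on at least 4 arrays), and 5 passed an adjusted p of 0.05 in limma, 2 as rises and 3 as falls. Over all 29231 probe sets tested, 31.2% passed, 12.4% as rises and 18.8% as falls, so the count of 5 of 12 lies close to the share that the whole array gives. The split of the array between 3614 rises and 5500 falls depends on the scaling, since 4631 rose and 4458 fell with arrays centred on the median of the probe sets tested. The median change of the 12 probe sets was 0.27, against -0.06 over all probe sets tested, and 7 of the 12 had a higher mean in the hypoxic mice. Those 7 hold both probe sets of Cdkn1a, both of Mdm2 and 1 of the 3 of Ccng1, so they are not 7 separate genes. In whole blood, fewer cells of a type and less RNA per cell cannot be told apart. Of blood cell type markers, only the transferrin receptor, listed here for red cell precursors, could be named from the sources used. Its 3' probe set rose from 5.36 ± 0.40 to 8.47 ± 0.44 (SD, n = 4 each, adjusted p = 1.42e-05 in a separate limma fit), so the 2 groups of mice differ in this respect too. Which cells this transferrin receptor signal came from was not tested. Its part in the p53 target values was not tested.

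**Figure D2:**
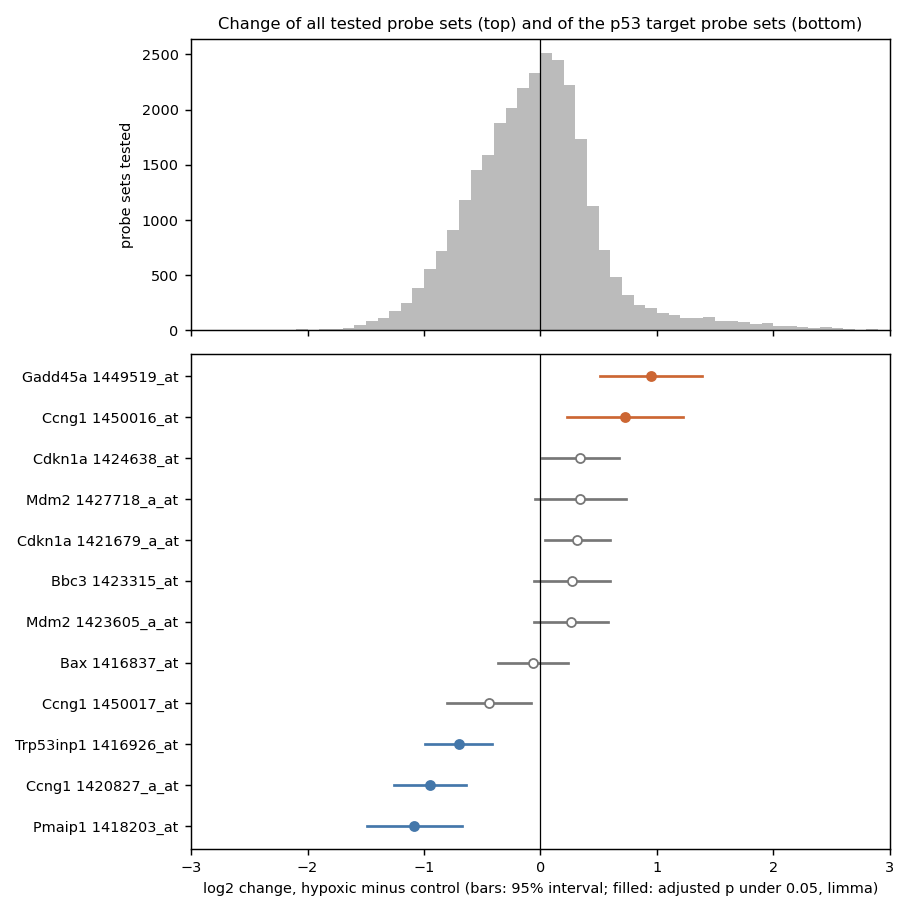
Top, number of tested probe sets by log2 change (hypoxic minus control). Bottom, the 12 p53 target probe sets with their 95% intervals on the same axis, filled where the adjusted p was under 0.05 (orange rose, blue fell): 2 lie to the right, 3 to the left, and the 7 open ones lie between -0.44 and 0.34.

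Gadd45a, a small nuclear protein that binds proliferating cell nuclear antigen and p21 and takes part in growth arrest and DNA repair, rose at probe set 1449519_at. The controls were at 9.77, 9.70, 10.38 and 9.94 and the hypoxic mice at 10.94, 11.30, 10.47 and 10.85. Every hypoxic mouse lay above every control, although control replicate 3 and hypoxic replicate 3 were only a small step apart. The mean went from 9.95 ± 0.31 to 10.89 ± 0.34 (SD, n = 4 each), which is 0.95 ± 0.20 (SE) higher, or 1.93-fold (limma, adjusted p = 0.00501). The size of this change exceeded that of 90.4% of the probe sets tested, but rises were common at this brightness. Of the 741 probe sets with a mean level of 10 or more, 29.3% rose.

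Cdkn1a encodes p21, the inhibitor of cyclin-dependent kinases through which p53 stops the cell cycle. At probe set 1421679_a_at the controls were at 4.65, 4.96, 4.88 and 4.93 and the hypoxic mice at 5.14, 5.16, 5.25 and 5.15. All hypoxic mice lay above all controls, within a narrow band. The difference was 0.32 ± 0.13 (SE), with a 95% interval from 0.04 to 0.59, and missed the threshold (adjusted p = 0.0794, limma). The same probe set did pass in a linear model without moderation (adjusted p = 0.0345) and with arrays centred on the median of the probe sets tested (0.39, adjusted p = 0.0367, limma), and over the settings that tested it its adjusted p or q lay between 0.0188 and 0.208.
At the second Cdkn1a probe set, 1424638_at, the controls were at 4.21, 4.70, 4.50 and 4.42 and the hypoxic mice at 4.66, 5.01, 4.89 and 4.64. Here control replicate 2 lay above 2 of the hypoxic mice. The difference was 0.34 ± 0.15 (SE, adjusted p = 0.105, limma), and the change at one probe set minus that at the other was -0.03 ± 0.10 (SE, exact permutation p = 0.8, adjusted over 5 pairs 0.8, n = 4 each). Both probe sets are dim. Of the control probe sets for bacterial genes, which measure unspecific signal in mouse RNA, the brightest had a mean level of 4.31, above the value of control replicate 1 at 1424638_at. The second brightest was at 3.30.

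Ccng1 encodes cyclin G1, which brings a phosphatase to Mdm2 and so takes part in the p53 feedback loop. Its 3 probe sets did not give the same picture. At 1420827_a_at the controls were at 8.25, 8.37, 7.99 and 7.97 and the hypoxic mice at 7.21, 7.05, 7.31 and 7.20. The groups were far apart, with every hypoxic mouse below every control. The mean fell by 0.95 ± 0.14 (SE), from 8.14 ± 0.20 to 7.19 ± 0.11 (SD, n = 4 each), which is 1.93-fold lower (adjusted p = 0.000648, limma). Falls were common at this brightness too, since 33.3% of the 7206 probe sets with a mean level of 6 to 8 fell and 13.5% rose.
At 1450016_at the controls were at 5.74, 6.05, 5.60 and 5.32 and the hypoxic mice at 6.35, 7.05, 6.23 and 5.99. The groups touched, with hypoxic replicate 4 below control replicate 2. The mean rose by 0.73 ± 0.23 (SE), from 5.68 ± 0.30 to 6.41 ± 0.45 (SD, n = 4 each, adjusted p = 0.0311, limma). This rise is the least firm call of the list. It was lost when control replicate 1, 3 or 4 or hypoxic replicate 1 or 2 was left out (adjusted p of 0.0580, 0.0701, 0.0846, 0.0518 and 0.0672 in limma), and without hypoxic replicate 2 it was 0.51.
At 1450017_at the controls were at 4.97, 5.34, 5.56 and 5.10 and the hypoxic mice at 4.52, 4.82, 4.997 and 4.85. Only hypoxic replicate 3 and control replicate 1 overlapped, by a small amount. The difference was -0.44 ± 0.17 (SE), which missed the threshold (limma, adjusted p = 0.0612), although it passed without control replicate 1 (adjusted p = 0.0477, limma) or hypoxic replicate 3 (adjusted p = 0.0462, limma).

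The Ccng1 probe sets were also compared within each mouse, where a difference in level holds the binding strength of the probes too, so that only its shift between groups is compared. The level at 1420827_a_at minus that at 1450016_at was 2.51, 2.32, 2.38 and 2.65 in the controls and 0.86, 0.01, 1.07 and 1.21 in the hypoxic mice. No hypoxic mouse came near a control in this difference, and hypoxic replicate 2 was the lowest. The mean shifted by -1.68 ± 0.28 (SE, exact permutation p = 0.0286, two-sided, n = 4 each), and 1450016_at minus 1450017_at shifted by 1.17 ± 0.31 (SE, exact permutation p = 0.0286, n = 4 each). That is the smallest p that 70 assignments of the mice can give, and adjusted over the 5 pairs of probe sets it is 0.0714 for both, so neither passed 0.05. The pair that moved the same way, 1420827_a_at and 1450017_at, differed by -0.51 ± 0.21 (SE, exact permutation p = 0.0571, adjusted 0.0952, n = 4 each). RefSeq lists 2 transcripts of Ccng1 in GRCm38.p6, of which 1 is curated. Which of these transcripts each probe set reads was not tested, since no probe sequences were used here.

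**Figure D3:**
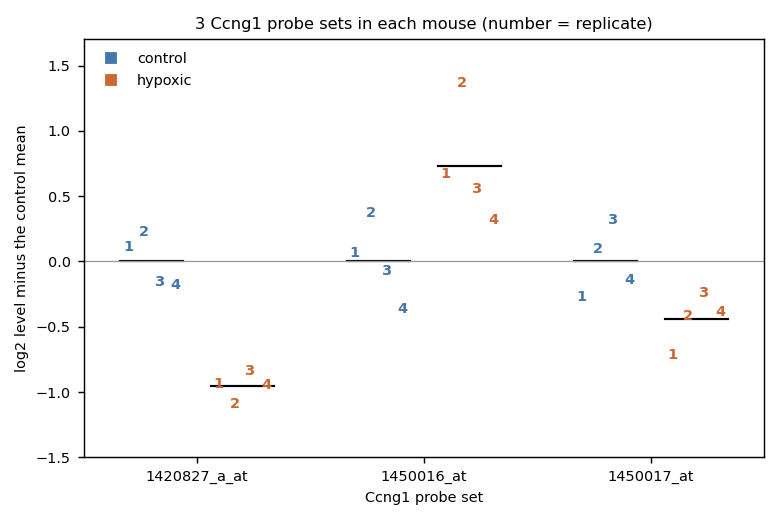
Log2 level of the 3 Ccng1 probe sets in each mouse minus the control mean of that probe set (numbers are replicates, lines are group means, 4 mice per group). The hypoxic mice lie below the controls at 1420827_a_at, mostly above them at 1450016_at and mostly below them at 1450017_at.

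Mdm2, the ligase that marks p53 for destruction, is a sensitive p53 readout because p53 acts on a second promoter inside the gene. Whether the Mdm2 start searched above belongs to that promoter was not tested. At probe set 1423605_a_at the controls were at 7.57, 7.70, 7.76 and 7.46 and the hypoxic mice at 7.93, 8.12, 7.88 and 7.61. Hypoxic replicate 4 lay among the controls and the other hypoxic mice lay above them. The difference was 0.26 ± 0.15 (SE, 95% interval -0.06 to 0.58, limma, adjusted p = 0.187).
At 1427718_a_at the controls were at 5.33, 5.22, 5.25 and 5.52 and the hypoxic mice at 6.13, 5.27, 5.60 and 5.69. The hypoxic mice were spread widely here, with replicate 1 high and replicate 2 among the controls. The difference was 0.34 ± 0.18 (SE, 95% interval -0.05 to 0.73, adjusted p = 0.165, limma), and it did not differ from that of the other probe set beyond its error (-0.08 ± 0.27 SE, exact permutation p = 0.8, adjusted 0.8, n = 4 each).

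Trp53inp1, a stress protein that helps p53 toward its death targets and takes part in autophagy, fell at 1416926_at. The controls were at 8.74, 9.04, 8.73 and 8.69 and the hypoxic mice at 8.09, 7.98, 8.15 and 8.17. The 4 hypoxic mice were close to each other and all below the controls. The mean fell by 0.70 ± 0.13 (SE), from 8.80 ± 0.16 to 8.10 ± 0.08 (SD, n = 4 each), which is 1.63-fold lower (adjusted p = 0.00262, limma). At this brightness 37.7% of the 1656 probe sets with a mean level of 8 to 10 fell.

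Of the 3 genes of the mitochondrial death pathway Pmaip1 fell, and Bbc3 and Bax did not pass the threshold. Pmaip1 encodes Noxa, which frees death effectors by binding the survival protein Mcl1, and it had the largest change of the 12 probe sets. At 1418203_at the controls were at 5.96, 6.78, 6.57 and 6.38 and the hypoxic mice at 5.09, 5.58, 5.25 and 5.44. Control replicate 1 was the lowest control and still lay above every hypoxic mouse. The mean fell by 1.09 ± 0.19 (SE), from 6.42 ± 0.35 to 5.34 ± 0.21 (SD, n = 4 each), which is 2.12-fold lower (adjusted p = 0.00156, limma). Its size exceeded that of 93.4% of the probe sets tested, and of the 19628 probe sets with a mean level under 6, 11.7% fell. The mean level of Pmaip1, 5.88, is at the upper edge of that band. Of the 7206 probe sets with a mean level of 6 to 8, 33.3% fell.
Bbc3 encodes Puma, the other p53-induced protein of this class, which binds all the survival proteins of the Bcl2 family. At 1423315_at the controls were at 4.73, 4.56, 4.61 and 4.74 and the hypoxic mice at 4.99, 4.76, 5.26 and 4.73. Hypoxic replicates 1, 2 and 3 lay above every control, replicate 2 by only a small amount, and replicate 4 lay among the controls. The difference was 0.27 ± 0.15 (SE, 95% interval -0.05 to 0.60), short of the threshold (adjusted p = 0.179, limma).
Bax, the effector that forms pores in the mitochondrial outer membrane, was at 6.70, 6.87, 6.71 and 6.52 in the controls and at 6.48, 6.79, 6.72 and 6.55 in the hypoxic mice at 1416837_at. The groups overlapped throughout. The difference was -0.07 ± 0.14 (SE, 95% interval -0.36 to 0.23, limma, adjusted p = 0.740), and its sign turned when quantile normalization was repeated (0.12) and when arrays were centred on the median of the probe sets tested (0.0069).

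**Figure D4:**
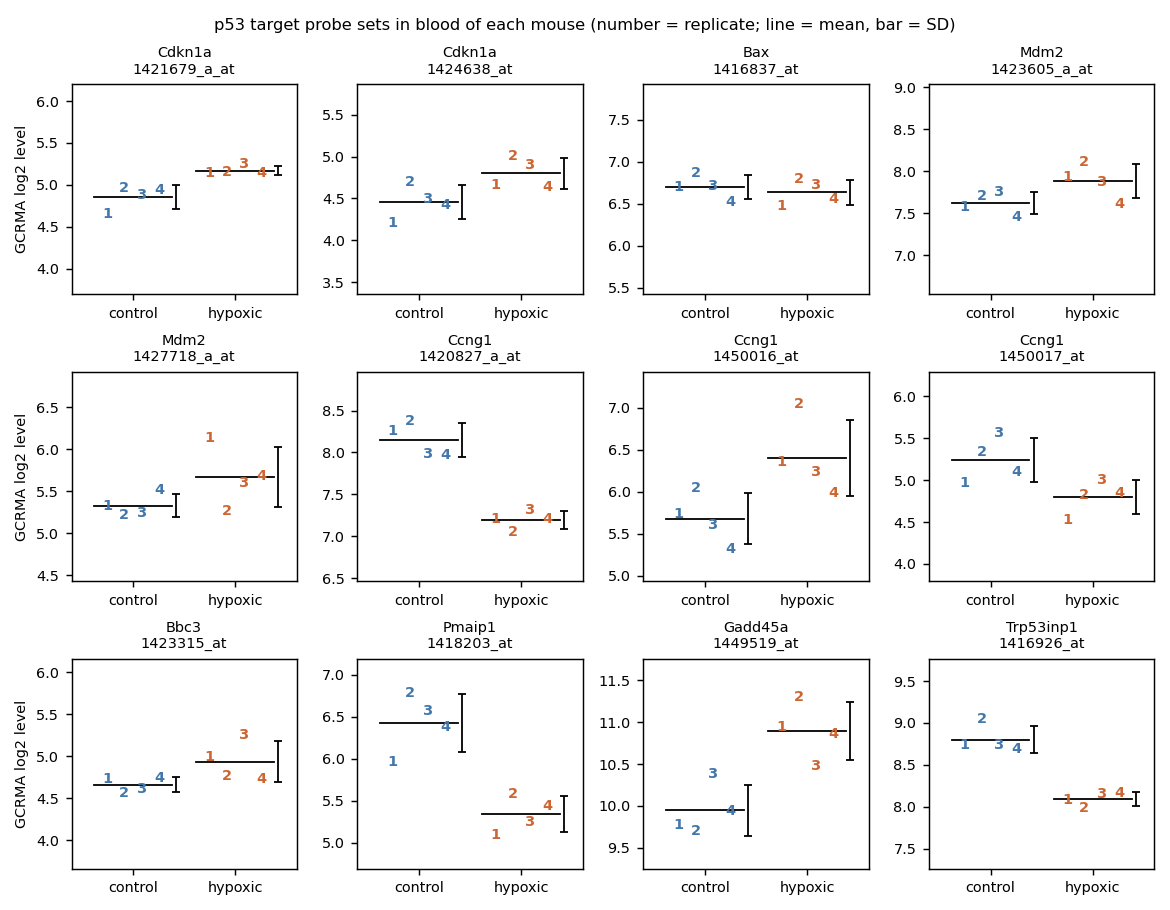
GCRMA log2 level of each p53 target probe set in each mouse (the numbers are replicates, 4 control mice in blue and 4 hypoxic mice in orange), with group means as lines and SDs as bars. All vertical axes span the same range of log2 units. The groups do not overlap at 1420827_a_at, 1418203_at, 1416926_at, 1449519_at and 1421679_a_at, with the narrowest gap at 1449519_at, and overlap at the other 7.

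The groups did not overlap at 5 of the 12 probe sets, 2 higher and 3 lower in the hypoxic mice. Over the array this held for 31.9% of the probe sets tested, 13.9% higher and 18.0% lower. These 5 are not the 5 that passed in limma, since Cdkn1a 1421679_a_at takes the place of Ccng1 1450016_at. The spread within groups was not wider than usual, with a median SD of 0.19 for the 12 probe sets against 0.24 for all tested.

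Within groups, some mice stood at the top of several genes and at the bottom of others. Hypoxic replicate 2 had the highest hypoxic value at 6 of the 12 probe sets (1424638_at of Cdkn1a, Bax, 1423605_a_at of Mdm2, 1450016_at of Ccng1, Pmaip1 and Gadd45a), whereas it was the highest hypoxic mouse at 23.2% of all probe sets tested. It was the lowest hypoxic mouse at 3 of the 12, against 25.4% of all tested. Control replicate 2 was the highest control at 7 of the 12 (both Cdkn1a probe sets, Bax, 1420827_a_at and 1450016_at of Ccng1, Pmaip1 and Trp53inp1), against 27.6% of all probe sets tested, and the lowest control at 3 of the 12, against 23.2%. Several of these probe sets read the same gene, and same-numbered mice are different animals, so the counts are a description only. Hypoxic replicate 2 was also the mouse with the highest transferrin receptor, at 9.03, the other hypoxic mice lying between 7.99 and 8.54.

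In the authors' deposited table, made with another test on the same arrays, q-values below 5% were listed for 7 of the 12 probe sets, of which 3 rose and 4 fell. Such q-values were held by 36.5% of all 38206 probe sets that the authors' deposited table lists, 16.5% being rises and 20.0% falls. Besides the 5 called in limma these were Cdkn1a 1421679_a_at, with a q-value of 1.88% in the authors' deposited table, and Ccng1 1450017_at, with 2.40%. The lowest q-values of the list in the authors' deposited table were those of Ccng1 1420827_a_at (0.0390%), Trp53inp1 (0.0488%) and Pmaip1 (0.0771%). For Gadd45a the authors' deposited table gives a 1.93-fold ratio, with 0.233% as its q-value. Because these values come from the same 8 arrays, they are no independent measurement.

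Across the arrays, the median level of the probe sets tested lay between 5.41 and 5.45 in controls and between 5.35 and 5.37 in hypoxic mice. The largest change of any of 27 bacterial control probe sets was 0.68, which the changes of Gadd45a, Pmaip1 and Ccng1 1420827_a_at exceed clearly and those of Ccng1 1450016_at (0.73) and Trp53inp1 (-0.70) only just. The mean of the bacterial probe sets lay between 2.16 and 2.23 in control mice and between 2.42 and 2.60 in hypoxic mice. It was thus higher on every hypoxic array than on any control array. Its part in the small rises at Cdkn1a, Mdm2 and Bbc3 was not tested. The other p53 pathway genes and the blood cell markers that had been listed could not be matched to probe sets and are not analysed here.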

How the data were processed

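Whole-blood RNA of 8 mice was hybridized to 1 Affymetrix array each. The submitters' processing notes name GCRMA and Partek, without versions. The deposited expression values are log2 values that lost their decimal point and are scores as listed. They were restored so as to give the log2 difference of means in the authors' deposited table of a significance analysis of microarrays (SAM), to within 5e-06. All 12 p53 target probe sets are in that table and had exactly 1 reading. Of the other probe sets, 5 had several readings, and the one with the least spread within groups was taken. The 6895 probe sets outside that table were read by the least spread across arrays. None of them is among the 29231 probe sets tested. They enter only the run without a filter, scalings computed over the whole array and the summary of bacterial controls, whose brightest and most changed probe set is in the table. The restored values gave the deposited fold ratio, not used for the reading, to within 1.6e-06 for every listed probe set. Per the file headers that table also holds a score, a fold and a q-value in percent.

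The 64 control probe sets were left out, and a probe set was tested if its log2 level exceeded 4 on 4 or more arrays, using limma 3.58.1 (R 4.3.3, lmFit and eBayes, two-sided, group as the only term), adjusted by Benjamini-Hochberg over all 29231. The transferrin receptor probe set is a control probe set of the array. Its adjusted p came from a separate limma fit with the same filter that kept the control probe sets. Pairs of probe sets of a gene were compared by exact permutation over all 70 assignments, adjusted over 5 pairs. Scripts were tested on simulated data. All 12 probe sets are reported with their values. Their gene names came with the list, since no table used here pairs other probe sets with genes. The members and lists were chosen with earlier results of these data known. Promoters are RefSeq windows of GRCm38.p6, and all 8 gene symbols are in the RefSeq gene table. The planned rule also named genes of other p53 pathway and cell type lists, which could not be matched. Same-numbered mice are different animals, and their deviations from group means had correlations of -0.11, -0.06, -0.10 and 0.06, so the numbers were not taken as pairs. Alternatives for filter, floor, scaling, variance model, array weights, replicate block, threshold, test and each mouse left out were run. Values were restored with Python 3.11.15 (numpy 2.4.6, pandas 2.3.3) and plotted with matplotlib 3.10.9.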

Additional observations from a re-analysis of the deposited data

Results flagged for a closer look

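Of 34 groups of 4 values checked (12 probe sets and 5 differences between probe sets, in both groups of mice), 2 held a mouse far from the other 3 of its group, where chance flags about 5% of groups. At Cdkn1a 1421679_a_at hypoxic replicate 3 was at 5.25, the other hypoxic mice lying between 5.14 and 5.16. At Trp53inp1 1416926_at control replicate 2 was at 9.04, against 8.69 to 8.74 in the other controls. Without control replicate 2 the Trp53inp1 change was -0.62 (adjusted p = 0.00945, limma) and without hypoxic replicate 3 the Cdkn1a difference was 0.29 (adjusted p = 0.133, limma).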

How the results depend on the processing

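Centring arrays on the median of the probe sets tested was a setting added with the data in view. Gadd45a, Trp53inp1, Pmaip1 and Ccng1 1420827_a_at kept their direction and their call in every setting that tested them, with changes of 0.81 to 1.09, -0.74 to -0.62, -1.24 to -0.97 and -1.01 to -0.87. Under the stricter filter 6 of the 12 probe sets were not tested (both of Cdkn1a, Mdm2 1427718_a_at, Ccng1 1450017_at, Bbc3 and Pmaip1). Ccng1 1450016_at kept its direction in all 21 settings but lost its call in 8, with adjusted p up to 0.103. The number of p53 target probe sets called was 4 to 7 over all settings, against 5. The share of the array called also moved between settings. Under the stricter filter 4 p53 target probe sets were called, as were 5809 of the 10210 probe sets tested. At an adjusted p under 0.01 in limma 4 were called, as were 4617 of 29231 probe sets tested. The number of rises among them was 1 with arrays centred on their spike-ins and 1 at an adjusted p under 0.01, and 1 to 2 with any 1 mouse left out. In the fit with a replicate block all 12 probe sets kept their call or lack of one, and 7764 probe sets of the array were called.

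Over the whole array the stricter filter gave 5809 calls with 1978 rises, from fewer probe sets tested. An adjusted p under 0.01 gave 4617 calls, 1954 rises and 2663 falls, a linear model without moderation 3607 falls (the cause was not tested), and the authors' deposited q-values under 5% gave 13934 calls with 6294 rises, from more probe sets tested and another test. Leaving out each mouse gave 6872 to 9315 calls. Bax, not called in any setting, turned to 0.12 with renewed quantile normalization and to 0.0069 with arrays centred on the median of the probe sets tested (the cause was not tested). The difference between the Cdkn1a probe sets, -0.03, turned to 0.0152 with renewed quantile normalization and ranged from -0.0735 to 0.0480 with any 1 mouse left out, and that between the Mdm2 probe sets, -0.08, ranged from -0.291 to 0.0581. None of the 5 pairs of probe sets passed an adjusted p of 0.05 by the exact permutation test in any setting, and 2 had an unadjusted p under 0.05. The smallest p that this test can give is 0.0286, also with 1 mouse left out. With only 2 of the 5 pairs at that value their adjusted p is 0.0714, so these could not pass whatever their size. Not run were the tests of the other p53 pathway lists, with 1 or every probe set per gene, because no table used here names their probe sets. Signal near the background limits what can be said of the dim Cdkn1a and Bbc3 probe sets.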
